A study of Bos taurus with 38 samples.

Results

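The cumulus-restricted genes described here were those whose transcripts were abundant in bovine cumulus cells and close to absent from the typical oocyte. Counts were converted to CPM, the count of a gene divided by the total of its library, times 1000000. A gene entered when its median CPM over 19 cumulus libraries was at least 100 times its median CPM over 19 oocyte libraries, with 0.1 CPM added to the latter. Of the 27607 genes counted, 241 met this ratio, and the 200 with the highest cumulus median were taken. From these 200, 10 genes were left out by name (SRGN, VIM, FST, INHBA, INHA, GSTA1, TRIB2, CCND2, FSHR and CYP11A1), which left 190. The genes were thus chosen by the median CPM of both compartments, so the distance between cumulus cells and oocytes is a description and was not tested.

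Cumulus cells are the granulosa-derived somatic cells that stay attached to the oocyte in the antral follicle. They feed the oocyte through cytoplasmic projections that cross its coat and end in gap junctions, they answer follicle-stimulating hormone, and they take part in estradiol synthesis. Genes of steroid and lipid metabolism, secreted signals and extracellular matrix are known parts of the program of these cells.

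The study compared cumulus-oocyte complexes of cattle by brilliant cresyl blue (BCB), a dye that growing oocytes reduce through glucose-6-phosphate dehydrogenase and that fully grown oocytes retain. Complexes whose oocyte stayed blue were BCB positive (BCB+, 9 complexes) and those whose oocyte lost the colour were BCB negative (BCB-, 10 complexes). Each complex gave 1 library from the single oocyte and 1 from its own cumulus cells, 38 in all, with no treatment that differed between the groups. The complexes were aspirated from antral follicles of abattoir ovaries, so the stage of the follicle was not controlled, and the labels give neither the age of the cows nor which complexes shared a cow. The p-values therefore cover the spread between complexes, which may in part be a spread between fewer animals. Oocytes and cumulus cells were parted with trypsin and pipetting, and the oocytes were washed before lysis.

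Total counts ran from 1103200 to 10430148 in the cumulus libraries and from 8886070 to 29810354 in the oocytes. The 13 protein-coding genes of mitochondrial DNA held 0.966% to 17.4% of the counts of a cumulus library, with a median of 1.38% in BCB+ and 7.59% in BCB- complexes. Markers of the labelled cell types were higher in their own compartment. The 13 of 14 granulosa markers that had an identifier summed to between 6365 and 34763 CPM in cumulus cells and to between 84.5 and 3397 CPM in oocytes, and AMHR2 was at 0 in 1 cumulus library. Of 23 oocyte markers 4 had an identifier (ZP2, ZP3, KIT and DAZL), and they summed to 3081 to 5301 CPM in oocytes against 7.24 to 134 CPM in cumulus cells, where ZP2 was at 0 in 7 libraries. Of the markers of other cells, VWF, TEK and TIE1 of the endothelium were together at 1.39 to 32.6 CPM in cumulus cells and at 106 to 192 CPM in oocytes. In cumulus cells the fibroblast collagen COL1A2 was at 0 to 19.0 CPM and the theca marker PTCH1 at 18.1 to 79.3 CPM. The haemoglobin gene HBA, the only erythrocyte marker with an identifier, ran from 0.265 to 573 CPM with a median of 30.1 CPM, and its part in the results was not tested. None of the 14 leukocyte markers had an identifier. The runs of complex numbers in the labels divided the groups unevenly: complexes 6 to 24 were 3 BCB+ and 1 BCB-, complexes 65 to 74 were 6 BCB+ and 3 BCB-, and complexes 86 to 91 were 6 BCB-.

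The 190 genes together held 2.15% to 6.15% of the counts of a cumulus library. Their cumulus medians reached from 24.7 to 2338 CPM, with 8 genes at 1000 CPM or more, 20 at 500 or more and 87 at 100 or more. Their oocyte medians did not pass 21.9 CPM and were 0 for 3 genes, and the ratio of the rule ran from 100.2 to 607 with a median of 199. Counts were not divided by transcript length, so the order of the genes is an order of CPM and not of molecules. At the edge of the rule, DCP1B lay just inside the ratio at 100.5, and NR5A2, a nuclear receptor of granulosa cells, lay just outside at 98.1 with a cumulus median of 699 CPM. At the end of the ranking, ENSBTAG00000002938 was the last gene inside at 24.7 CPM, and ZNF484 lay just outside at 24.6 CPM.

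**Figure D1:**
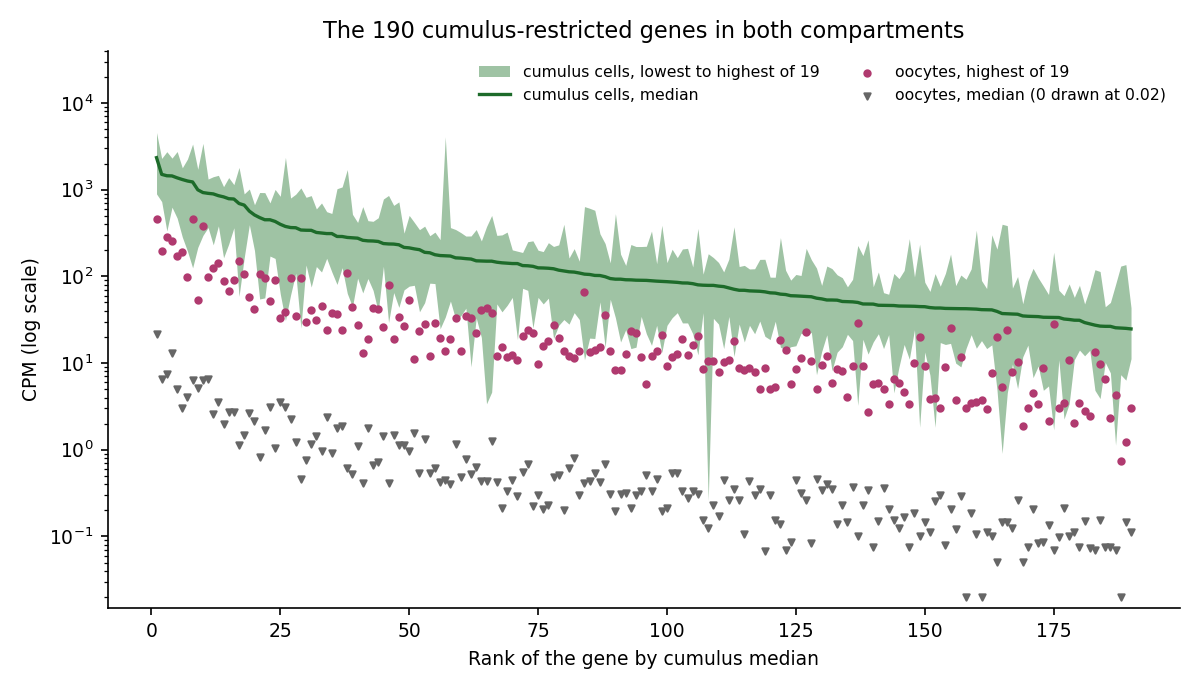
CPM of each of the 190 genes (vertical axis, log scale) against their rank by cumulus median (horizontal axis), with the cumulus median as a line, the range over 19 cumulus libraries as a band, and the median and highest oocyte as symbols. Cumulus medians fall from 2338 to 24.7 CPM, oocyte medians stay at or under 21.9 CPM, and the highest oocyte reaches into the cumulus range for many genes.

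Symbols could be paired with 72 of the 190 genes, from the tables of the study's own comparisons, and 118 have an identifier only. These tables were ordered by the study's results on the same samples, so the named genes are not a neutral draw. Their median log2 fold change between the BCB groups was 0.35, against 0.03 for the 118 genes without a symbol. Counts below are over all 190.

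Of 5 genes of lipid and retinoid handling, STRA6 and SCD were the 3rd and 7th most abundant of the list, and APOA1, PTGDS and LRP8 were the 57th, 64th and 86th. STRA6, the membrane receptor that takes up retinol, had a cumulus median of 1446 CPM and ranged from 333 to 2739. SCD, the desaturase that makes monounsaturated fatty acids, had a median of 1258 CPM and ranged from 195 to 2253. HSD17B1, which converts estrone to estradiol, had a median of 1308 CPM and ranged from 284 to 1786. For STRA6, HSD17B1 and SCD the lowest library was that of complex 6 (BCB-). MGARP, a mitochondrial protein of steroid-producing tissue, had a median of 430 CPM and ranged from 161 to 1005. APOA1, the main apolipoprotein of high-density lipoprotein, had a median of 173 CPM but a far wider range, which is given with the variable genes. PTGDS, a prostaglandin D synthase and lipid carrier, had a median of 150.2 CPM, and the lipoprotein receptor LRP8 of 102 CPM.

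Of the genes named here, RARRES2, VEGFA, IHH and IGFBP4 encode secreted proteins, and they were not a list set for a test. RARRES2, the precursor of the adipokine chemerin, was the most abundant gene with a symbol, with a median of 1500 CPM over a range of 728 to 2289. VEGFA, the main growth factor for blood vessels, had a median of 1226 CPM and ranged from 125 to 3354. IHH, the Hedgehog ligand through which granulosa cells signal to the theca, had a median of 692 CPM and ranged from 58.7 to 1803. IGFBP4, which binds insulin-like growth factors, was near the end of the list with a median of 36.9 CPM. RARRES2 differed 3.14-fold between its lowest and highest library, VEGFA 26.8-fold and IHH 30.7-fold.

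Matrix and cytoskeleton were represented by secreted proteins, collagen-modifying enzymes and contractile proteins. SMOC2, a secreted calcium-binding matrix protein, had a median of 852 CPM. TLL2, a tolloid-like metalloprotease, had a median of 780 CPM. The lysyl hydroxylases PLOD2 and PLOD1, which modify collagen, had medians of 663 and 449 CPM, and the collagen chains COL6A2 and COL4A3 had medians of 278 and 146 CPM. Among proteins of the actin filament and of muscle, TNNI3 (the inhibitory subunit of cardiac troponin) had a median of 906 CPM, TPM2 (a tropomyosin) of 825 CPM and FLNA (filamin A, an actin crosslinker) of 311 CPM. The surface of the cells was represented by UPK1B, a tetraspanin of the bladder lining, at 565 CPM and by the integrin subunit ITGB8 at 31.2 CPM.

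Signalling and transcription completed the abundant members. RASL11B, a small GTPase related to Ras, had a median of 996 CPM. PRKAR2B, a regulatory subunit of the cyclic AMP-dependent protein kinase, had a median of 510 CPM. FOS, an immediate early gene that answers stimulation and cell handling within minutes, had a median of 925 CPM and ranged from 297 in complex 66 to 3415 in complex 72. The transcription factors GATA6, of the granulosa lineage, and TOX2, of the HMG-box family, had medians of 213 and 112 CPM. FOXL2, which maintains granulosa cell identity, had 90.3 CPM. PFKL, the liver form of the glycolytic enzyme phosphofructokinase, had 365 CPM. The most abundant of all 190 was ENSBTAG00000052369, for which no symbol was found, with a median of 2338 CPM.

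The first comparison asked whether cumulus-restricted genes differed in cumulus cells between complexes with BCB+ and BCB- oocytes. As a share of each library, the genes together took 4.61% at the lowest, 5.25% at the median and 6.15% at the highest of the 9 BCB+ libraries. In the 10 BCB- libraries the values were 2.15%, 3.50% and 4.77%. The groups overlapped by a narrow margin, through complexes 88 and 89 (BCB-) at 4.77% and 4.74% and complex 73 (BCB+) at 4.61%. These sums moved with other features of the libraries. The BCB- library with the lowest share, that of complex 68, also had the lowest total counts (1103200) and the highest mitochondrial share (17.4%). Complexes 88 and 89 had mitochondrial shares of 2.06% and 1.17%, in the range of the BCB+ libraries. With the 13 mitochondrial genes out of the totals, the median sum was 53815 CPM in BCB+ and 38597 CPM in BCB- libraries. With them it was 52469.4 and 34994.5 CPM. The part of depth and mitochondrial share in the difference was not tested, and in these bulk libraries fewer cells of a type and less RNA per cell cannot be told apart.

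After scaling with TMM factors, which align libraries on the bulk of their genes, the sum was 39889 to 51603 CPM with a median of 42723 in BCB+ libraries. In BCB- libraries it was 37293 to 44211 CPM with a median of 41315. On that scale the groups overlapped between 39889 and 44211 CPM. Within complexes 65 to 74, the one run with several libraries of both groups, the TMM-scaled medians were 43596 CPM in 6 BCB+ libraries and 41596 CPM in 3 BCB- libraries. The other runs held 1 or no library of one group and give no value of this kind.

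**Figure D2:**
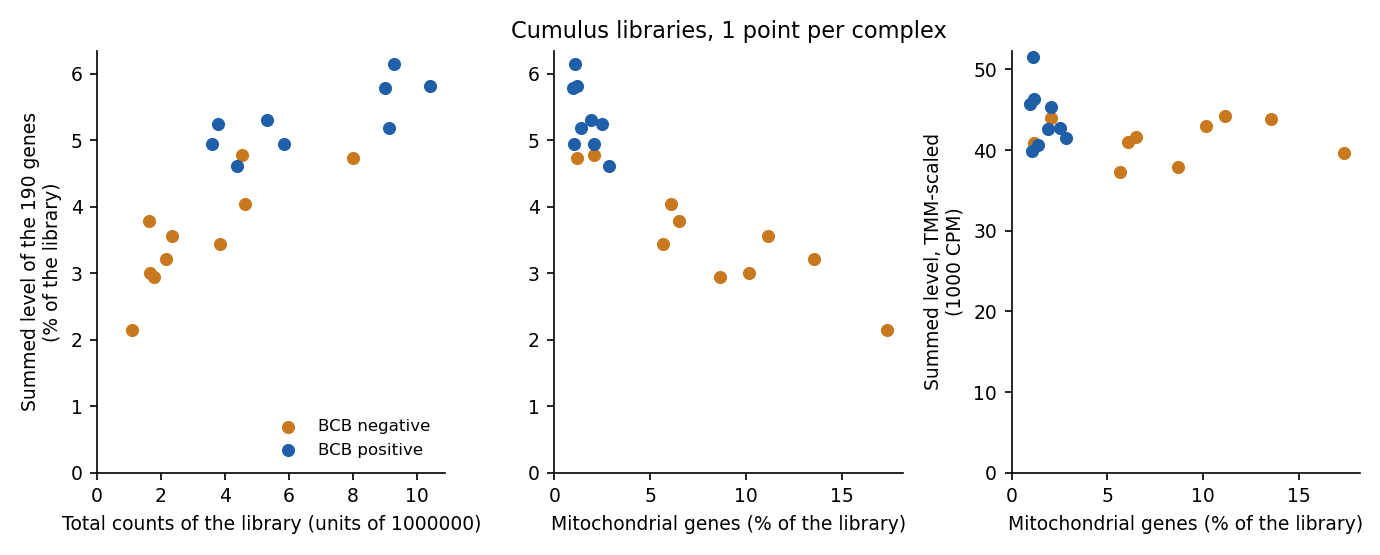
Summed level of the 190 genes in each cumulus library, as a percentage of the library against its total counts, in units of 1000000 (left) and against the share of mitochondrial genes in percent (middle), and as TMM-scaled CPM in units of 1000 against the same share (right), 1 point per complex. The percentage is 2.15% in the library with the highest mitochondrial share, 17.4%, and up to 6.15% where that share is near 1%, whereas the TMM-scaled sum stays between 37293 and 51603 CPM.

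All 190 genes were among the 12313 tested in cumulus cells with edgeR's quasi-likelihood test, TMM scaling and Benjamini-Hochberg adjustment. At an adjusted p under 0.01, 0 of the 190 were called in either direction. Over all tested genes 0.56% were called, 5 higher and 64 lower in BCB+ complexes. At an adjusted p under 0.05, 2 of the 190 were higher in BCB+ complexes and 0 lower, where 0.731% of all genes were higher and 2.19% lower. At an unadjusted p under 0.05 there were 45 genes of the list, 30 higher and 15 lower, where 8.37% of all genes were higher and 10.3% lower. DESeq2 called 2 of the 190 higher and 0 lower at an adjusted p under 0.01, where 0.528% of all genes were called higher and 2.44% lower. The same 2 genes were called where the edgeR likelihood-ratio test without TMM and DESeq2 both had to call a gene (0.528% of all genes higher) and when no filter was applied (0.0703%).

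The list as a whole leaned towards BCB+ complexes by a small amount. The median log2 fold change (BCB+ minus BCB-) was 0.16 over the 190 genes and -0.01 over all tested genes, and 126 of the 190 were above 0, where 48.6% of all genes were. With the log10 of the library total as a covariate the median was 0.08 over the list and 0.0042 over all genes, and 109 of the 190 (57.4%) were above 0, as were 6211 of all 12313. With the run of complex numbers as a covariate the median was 0.29 over the list and -0.0016 over all genes, and within complexes 65 to 74 alone it was 0.25 and 0.0065. With library totals in place of TMM, the median of all tested genes rose to 0.46 and that of the list to 0.62, and 34 of the 190 were called higher and 0 lower, where 13% of all genes were called higher and 0.837% lower. Those called with library totals included IHH, IGFBP4, STRA6, MGARP, GATA6, TOX2, PFKL, TGM2, LGALS3BP and MARVELD1. With library totals and the run as covariate, chosen after seeing the data, 74 of the 190 were called higher, where 25.2% of all genes were. The number of calls thus depended on the scale.

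**Figure D3:**
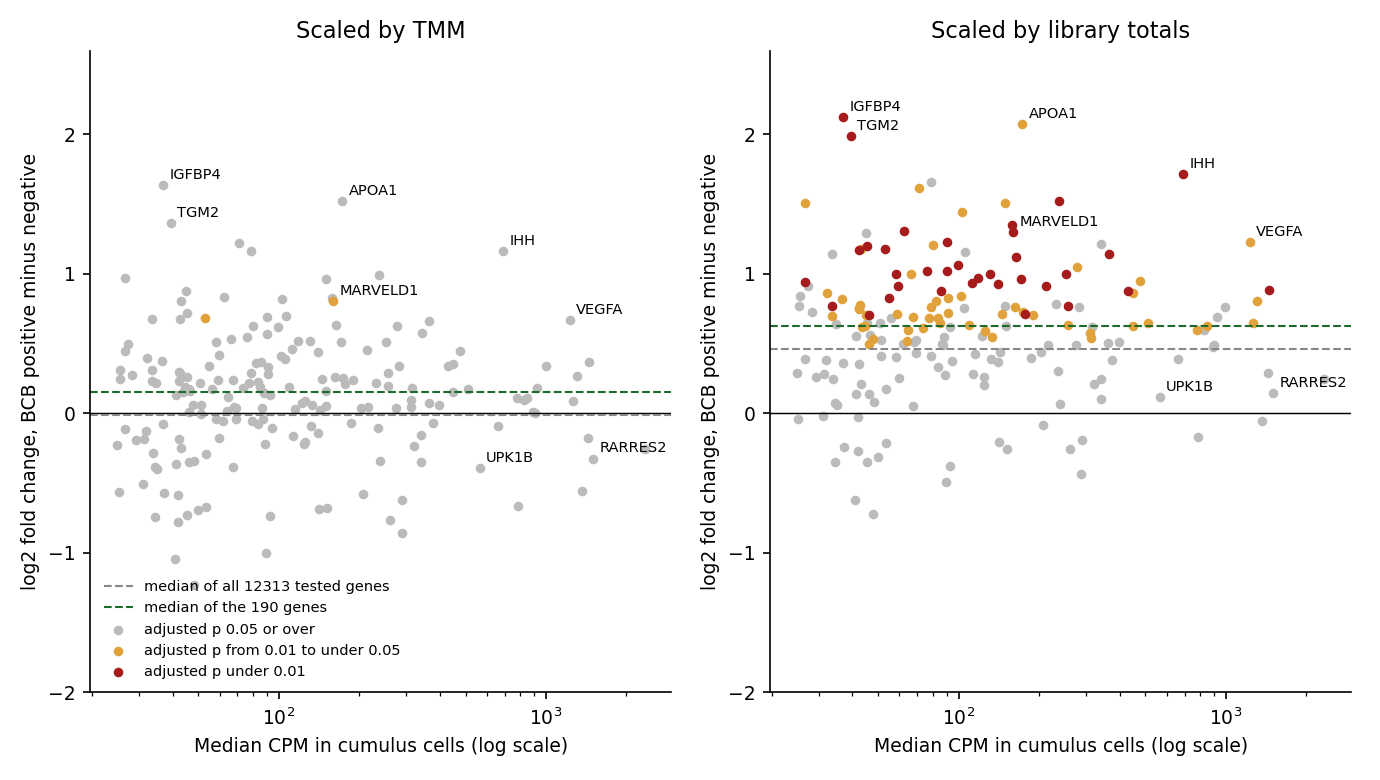
Log2 fold change of each of the 190 genes between BCB+ and BCB- cumulus cells (vertical axis) against median CPM in cumulus cells (log scale), with TMM scaling on the left and library totals on the right; colours give the adjusted p of edgeR's quasi-likelihood test and dashed lines the medians of the list and of all tested genes. With TMM the list's median is 0.16 and no gene has an adjusted p under 0.01, and with library totals the median is 0.62 and 34 genes do.

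The genes called at the wider threshold were MARVELD1 and ENSBTAG00000051225, both singled out after their values were seen. MARVELD1, a membrane protein with a MARVEL domain, had 188 CPM at the lowest, 239 at the median and 291 at the highest in BCB+ cumulus cells. In BCB- cumulus cells it had 42.9, 91.4 and 160 CPM, so that the groups did not overlap on this scale. Its log2 fold change was 0.80 ± 0.17 (SE, adjusted p = 0.0136, edgeR's quasi-likelihood test), and leaving out 1 complex at a time moved the adjusted p between 0.0094 (without complex 88) and 0.031 (without complex 69). The log2 fold change of MARVELD1 was 0.87 with the run of complex numbers as covariate (adjusted p = 0.060, same test), 0.94 with the log10 of the library total as covariate (adjusted p = 0.162) and 0.52 within complexes 65 to 74 (adjusted p = 0.19), and in each of these fits 0 of the 190 genes passed 0.05. Over all 12313 genes, 78 were higher and 282 lower at 0.05 with the run as covariate, 31 and 167 within complexes 65 to 74, and 2 and 5 with the log10 total, a fit that called hardly any gene. ENSBTAG00000051225 had 56.3 to 104 CPM in BCB+ and 13.3 to 53.1 CPM in BCB- cumulus cells. Its log2 fold change was 0.68 ± 0.16 (SE, adjusted p = 0.022 with the same test). Without complex 69 or without complex 71 it did not pass 0.05, and MARVELD1 alone of the 190 did (27 and 42 of all genes higher). Without complex 86 or without complex 88, 4 of the 190 were higher at 0.05 (66 and 115 of all genes).

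IHH also had no overlap in CPM. It was at 827, 1201 and 1803 CPM (lowest, median and highest) in BCB+ complexes and at 58.7, 441 and 692 CPM in BCB- complexes. Its log2 fold change was 1.16 ± 0.37 (SE) and did not pass 0.05 in the main test (adjusted p = 0.089, edgeR's quasi-likelihood test). It passed 0.05 but not 0.01 with DESeq2 (adjusted p = 0.024) and without a filter on low values (adjusted p = 0.0499, edgeR). Within complexes 65 to 74 the lowest BCB+ value of IHH, 827 CPM, was above the highest BCB- value, 611 CPM, while the fitted log2 fold change there was 0.44 (adjusted p = 0.42). In CPM, 4 of the 190 genes were higher in BCB+ complexes with no overlap of the groups, these 3 and PLEK, where 1.46% of all tested genes were, and 0 were lower, where 0.0162% were. With TMM scaling, 0 of the 190 were free of overlap in either direction, where 0.00812% of all genes were higher and 0.0406% lower, so that the gap depended on the scale.

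Among the most abundant genes with a symbol no difference passed the test with TMM scaling, and the intervals given here hold for that scale. VEGFA was at 722, 1793 and 3354 CPM in BCB+ complexes and at 125, 871 and 1677 CPM in BCB- complexes, with overlap. The log2 fold change of VEGFA was 0.67 with a 95% interval of -0.19 to 1.53 (adjusted p = 0.42, edgeR's quasi-likelihood test). For STRA6 it was 0.37 with an interval of -0.03 to 0.77, for HSD17B1 0.27 with -0.19 to 0.73 and for SCD 0.09 with -0.45 to 0.62. RASL11B had 0.34 with an interval of -0.20 to 0.89, and FOS 0.18 with -0.60 to 0.97. With library totals in place of TMM the log2 fold change was 0.89 for STRA6 (adjusted p = 0.0046, same test), 0.81 for HSD17B1 (adjusted p = 0.011) and 0.65 for SCD (adjusted p = 0.049), each above the upper end of its interval with TMM. On that scale it was 1.23 for VEGFA (adjusted p = 0.029, same test), 0.76 for RASL11B and 0.69 for FOS, each inside its interval. Within complexes 65 to 74, with TMM, the log2 fold change was 0.36 for VEGFA, 0.05 for STRA6, -0.09 for HSD17B1 and -0.37 for SCD. It was 0.37 for RASL11B and 0.47 for FOS there. With the log10 total as covariate it was 1.01 for VEGFA, 0.47 for STRA6, 0.51 for HSD17B1, 0.49 for SCD, 0.23 for RASL11B and -0.04 for FOS. Single complexes also moved these values, to -0.12 for FOS without complex 72 and 0.37 without complex 6, and to -0.04 for SCD and 0.16 for HSD17B1 without complex 6.

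RARRES2 and UPK1B leaned the other way. RARRES2 had 1249, 1576 and 1703 CPM in BCB+ complexes and 728, 1269 and 2289 CPM in BCB- complexes, so the BCB+ libraries lay inside the range of the BCB- libraries. Relative to the TMM scale its log2 fold change was -0.32 ± 0.14 (SE, adjusted p = 0.21, edgeR's quasi-likelihood test), whereas on the scale of library totals it was 0.15. UPK1B had 450, 565 and 997 CPM in BCB+ and 394, 577 and 1016 CPM in BCB- complexes. Its log2 fold change was -0.39 ± 0.17 (SE, adjusted p = 0.21), and 0.12 with library totals. Neither passed the test, and the sign of both turned with the scale. Within complexes 65 to 74 the value was -0.17 for RARRES2 and -0.61 for UPK1B, and with the log10 total that of UPK1B was -0.21.

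Several genes of the role groups had unadjusted p-values under 0.05 with adjusted values above 0.1. GATA6 had 213, 272 and 504 CPM in BCB+ and 77.0, 146 and 288 CPM in BCB- complexes, with a log2 fold change of 0.45 ± 0.16 (SE, adjusted p = 0.127, edgeR's quasi-likelihood test). TOX2 had 112, 183 and 209 CPM against 38.1, 84.6 and 180 CPM, with 0.46 ± 0.18 (adjusted p = 0.16). PFKL had 246, 468 and 800 CPM against 60.9, 193 and 449 CPM, with 0.66 ± 0.26 (adjusted p = 0.17). The groups overlapped for each of them. COL6A2 had 224, 303 and 519 CPM against 44.4, 102 and 337 CPM, with 0.63 ± 0.27 (adjusted p = 0.21), and LGALS3BP, a secreted partner of galectin-3, had 107, 150 and 257 CPM against 25.4, 78.7 and 138 CPM, with 0.52 ± 0.24 (adjusted p = 0.25). With the log10 of the library total as covariate the log2 fold changes were 0.15 for GATA6, 0.47 for TOX2 and 0.50 for PFKL. They were 0.37 for COL6A2 and 0.43 for LGALS3BP in that fit. Within complexes 65 to 74 the values were 0.56, 0.26, 0.50, 0.65 and 0.17 in the same order.

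The wider gene lists to which these genes belong were read with the same test at an adjusted p under 0.01, at which 0.0406% of all genes were higher and 0.52% lower in BCB+ complexes. Only genes with a symbol could be read, such as 13 of 46 for TGF beta and BMP signalling, 10 of 43 for the Wnt pathway and 13 of 74 for the matrix. Symbols came from the study's own results on these samples, so genes called there could be favoured, and counts within lists support nothing on a pathway. Of 26 tested genes of the actin cytoskeleton 0 were higher and 2 lower in BCB+ complexes, and of 21 transcription factors of the granulosa lineage 0 were higher and 2 lower. None of these called genes was one of the 190. No gene was called among 12 of lipid handling, 18 of steroid and cholesterol synthesis, 10 of the extracellular matrix, 26 of glucose and amino acid metabolism, 25 immediate early genes, 13 of antigen presentation, 26 of cell adhesion, 6 of the insulin-like growth factor system and 12 annexins, galectins and S100 proteins. Lists without any of the 190 genes gave 0 higher and 2 lower of 12 for TGF beta and BMP signalling, 0 higher and 1 lower of 10 for the Wnt pathway, 0 higher and 11 lower of 13 for the protein-coding genes of mitochondrial DNA (median log2 fold change -3.06), and no call among 19 glutathione and redox genes, 8 intermediate filament and tubulin genes and 15 proteases and inhibitors.

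The cumulus-restricted genes had a higher median spread from complex to complex than the tested genes of at least their abundance, which was not tested. The coefficient of variation (CV, the SD of CPM over its mean across the 19 cumulus libraries) had a median of 0.467 over the 190 genes and ranged from 0.251 to 1.95. Over the 6001 tested genes with a cumulus median at least that of the last gene on the list, which include the 190, the median was 0.343. The latter genes were not matched to the list on abundance. The steadiest genes with a symbol were RARRES2 (CV 0.251), the nuclear import receptor IPO8 (0.276), MAGED2 of the MAGE family (0.283), TLL2 (0.286) and UPK1B (0.292).

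The most variable of the genes with a symbol were APOA1 (CV 1.95), IGFBP4 (1.44), JSP.1 (1.09) and BOLA (1.05) of MHC class I, and TGM2 (1.02), and 4 genes without a symbol had a CV between those of IGFBP4 and TGM2. APOA1 had 4066 CPM in complex 71 (BCB+), 936 CPM in complex 69 (BCB+) and 630 CPM in complex 6 (BCB-), and no more than 482 CPM in the other libraries, down to 33.9 CPM in complex 66. Its log2 fold change between the groups was 1.52 ± 0.67 (SE, adjusted p = 0.23, edgeR's quasi-likelihood test) and 0.45 without complex 71, so that this one library held most of it. IGFBP4 had 384 CPM in complex 72 and 25.9 to 81.7 CPM in the other BCB+ libraries, against 4.51 to 41.4 CPM in the BCB- libraries. Its log2 fold change was 1.64 ± 0.48 (SE, adjusted p = 0.072 with the same test) and 0.95 without complex 72. With DESeq2 on all libraries it was 0.88 (adjusted p = 0.074). With edgeR it was 1.77 with the run as covariate, 1.47 within complexes 65 to 74 and 1.40 with the log10 total. TGM2, a transglutaminase that crosslinks proteins, had 17.3, 68.3 and 206 CPM in BCB+ and 4.93, 20.9 and 59.8 CPM in BCB- complexes, with a log2 fold change of 1.36 ± 0.54 (SE, adjusted p = 0.18). For TGM2 it was 0.38 within complexes 65 to 74, 0.59 within complexes 6 to 74 (chosen after seeing the data), 0.78 with the run as covariate and 2.6 with the log10 total. For APOA1 it was 2.61 within complexes 65 to 74, 0.97 within complexes 6 to 74, 0.50 with the run and 0.49 with the log10 total.

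JSP.1, BOLA and BOLA-NC1 are related genes of MHC class I. Their sequences were not compared here, and reads may be split among them and among alleles, so the level of each is uncertain. JSP.1 reached 637, 629 and 453 CPM in complexes 74, 70 and 72, and was at or under 183 CPM in the other 16 libraries. BOLA-NC1, named after its values were seen, was highest in the same 3 complexes, at 108, 119 and 95.6 CPM. BOLA was high in complexes 24, 74, 17 and 70, at 373, 369, 331 and 312 CPM, and at 52.8 CPM in complex 72. BOLA spanned 11.9 to 373 CPM in BCB+ and 12.3 to 212 CPM in BCB- complexes, with a log2 fold change of 1.22 ± 0.56 (SE, adjusted p = 0.25, edgeR's quasi-likelihood test).

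**Figure D4:**
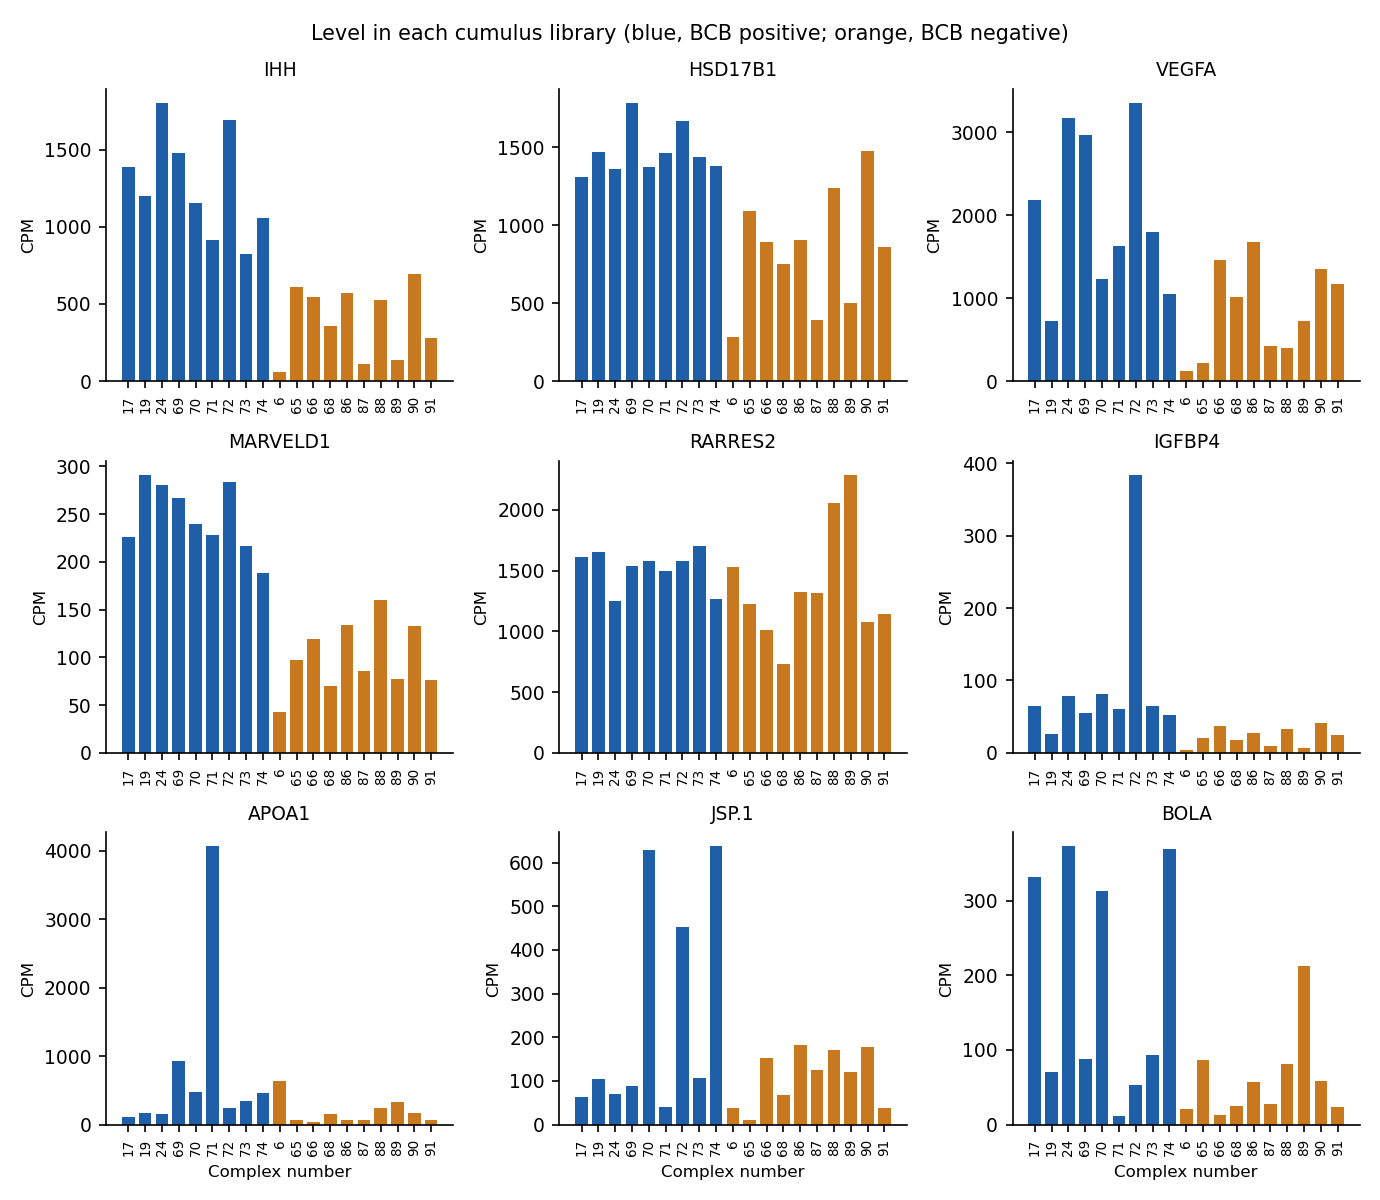
CPM of 9 of the genes in each of the 19 cumulus libraries, as bars by complex number, with BCB+ complexes in blue and BCB- complexes in orange. IHH and MARVELD1 do not overlap between the groups on this scale, RARRES2 runs from 728 to 2289 CPM, APOA1 stands at 4066 CPM in complex 71, IGFBP4 at 384 CPM in complex 72, and JSP.1 and BOLA are high in a few libraries each.

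Within the BCB- group 4 genes, picked after their values were seen, had their lowest values in complexes 6, 87 and 89, which was not tested. These complexes had IHH at 58.7, 113 and 137 CPM, with the next library at 281 CPM. They had HSD17B1 at 284, 394 and 503 CPM, with the next library at 753 CPM, and IGFBP4 at 4.51, 9.34 and 6.86 CPM, with the next at 18.1 CPM. TGM2 was at 8.46, 4.93 and 4.99 CPM in them, with the next at 17.3 CPM. The 3 libraries differed widely in total counts, with 1772144, 3855234 and 8013318 and in mitochondrial share, with 8.66%, 5.67% and 1.17%. Other genes were ordered differently: VEGFA was lowest in complexes 6, 65 and 88, at 125, 213 and 396 CPM, and STRA6 in complexes 6, 89 and 68, at 333, 807 and 810 CPM. RARRES2 was not low in complexes 6, 87 and 89, at 1529, 1315 and 2289 CPM, and complex 89 held the highest value of RARRES2 in the series. Of the 190 genes, 31 had their highest CPM in complex 89, 30 in complex 72 and 26 in complex 71. The lowest CPM lay in complex 68 for 69 genes, in complex 6 for 66, in complexes 65 and 87 for 13 each and in complex 89 for 3. Complexes 68 and 6 had TMM factors of 0.54 and 0.78. The share over all genes was not computed, so these counts are not a trait of the list.

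The second comparison concerned the small amounts of the same transcripts in the oocyte libraries. Summed over the 190 genes, the oocytes held 53.5 CPM (complex 17) at the lowest, 236 CPM at the median and 6641 CPM (complex 72) at the highest. The oocyte of complex 72 (BCB+) thus carried 0.664% of its counts in them, and on its own held 44.4% of the CPM summed over the 19 oocytes. The next were complexes 88 (BCB-) with 2412 CPM, 74 (BCB+) with 1682 CPM, 70 (BCB+) with 937 CPM and 89 (BCB-) with 901 CPM, and these 5 oocytes together held 84.0% of the sum. Between 88 and 190 of the 190 genes had a count in an oocyte, and 43 genes had a count in every oocyte. For 177 of the 190 genes the highest oocyte was that of complex 72.

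In the oocyte of complex 72 the genes stood at a nearly even fraction of their level in the cumulus cells of the same complex. The median over the 190 genes was 10.7% of the own-cumulus CPM, and 180 of the genes lay within 2-fold of that median. The named genes with the highest oocyte values, VEGFA at 461 CPM, FOS at 376, STRA6 at 281, RARRES2 at 195 and HSD17B1 at 189 CPM, had all of them in this oocyte. The ratio was lowest for LRP8, at 2.46%. In the oocyte of complex 88 the median ratio was 4.35% with 162 genes within 2-fold, in that of complex 74 it was 2.90% with 152, in that of complex 70 it was 1.53% with 175, and in that of complex 89 it was 1.69% with 156. The genes of the top list that had been left out by name, which the 190 do not include, gave similar fractions: the 10 together were at 10.8%, 4.16%, 3.87%, 2.07% and 2.62% of their own-cumulus CPM in these 5 oocytes, in the same order of complexes.

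**Figure D5:**
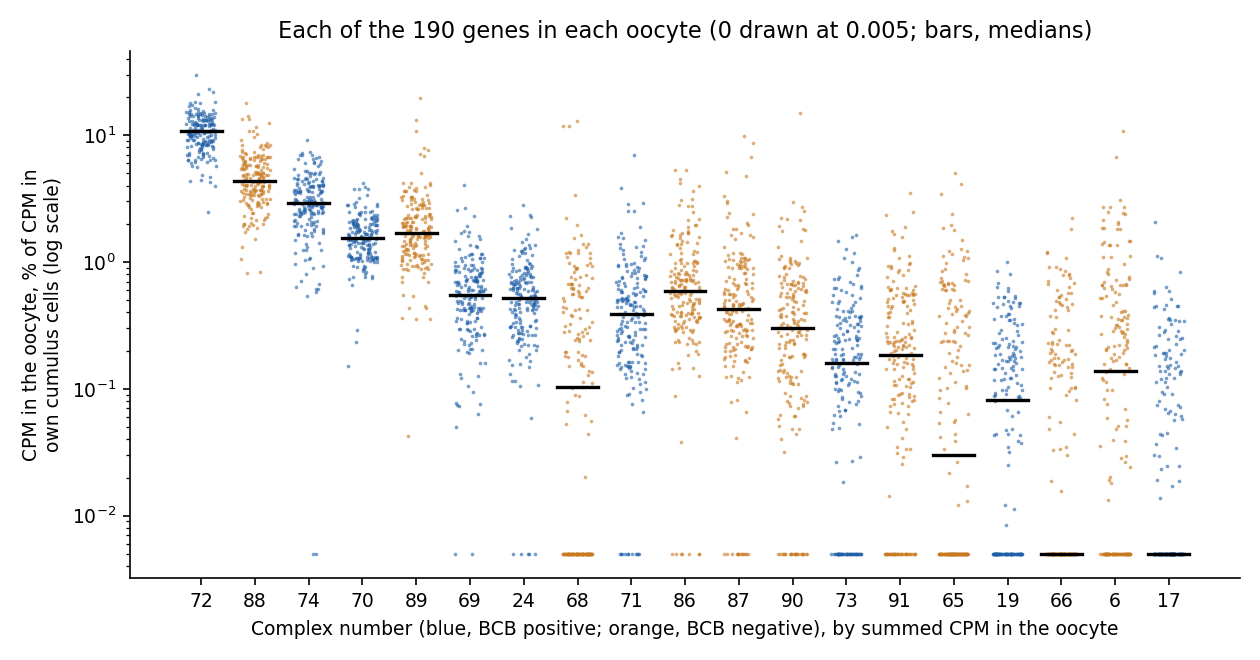
CPM of each of the 190 genes in the oocyte as a percentage of its CPM in the cumulus cells of the same complex (log scale), for 19 complexes ordered by the summed CPM in the oocyte; bars are medians and genes without a count are drawn at 0.005. In complex 72 the points gather around 10.7% and in complex 88 around 4.35%, while in the oocytes on the right many genes have no count.

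The profile in these oocytes was most like that of their own cumulus cells. Over the 190 genes, log2(CPM + 1) in the oocyte of complex 72 had a Pearson's r of 0.96 with the cumulus library of complex 72, the highest among the 19 cumulus libraries, of which the lowest gave 0.52. The own cumulus library also ranked first for complexes 88 (r = 0.92), 74 (0.91), 70 (0.94), 89 (0.87), 69 (0.86) and 24 (0.87), which were, with complex 72, the 7 oocytes with the highest sums. Below these, the own library ranked first in 1 of 12 oocytes, complex 66. These coefficients run across genes, which are not independent replicates, both values come from libraries of 1 complex prepared by the same protocol, and they are given as a description.

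The oocyte of complex 68 (BCB-) was different. Its sum of 273 CPM came to 77.9% from ENSBTAG00000052369 alone, at 213 CPM, which was 12.96% of the level in its own cumulus cells, while the median ratio over the 190 genes was 0.103% and 105 of them had a count. Without that gene the sum was 60.5 CPM. The oocytes with the lowest sums, complexes 17, 6, 66, 19 and 65, had 53.5 to 73 CPM.

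Between the BCB groups, summed CPM in the oocytes was 53.5 at the lowest, 316 at the median and 6641 at the highest in BCB+ oocytes. In BCB- oocytes it was 67.4, 181 and 2412 CPM, so that the groups overlapped and the highest value, that of complex 72, lay above every BCB- oocyte. Only 25 of the 190 genes passed the filter of more than 2 CPM in at least 9 oocytes, and a gene of this list could pass it through the few high oocytes, so their count and median support nothing on the list. Of these 25, edgeR's quasi-likelihood test called 0 at an adjusted p under 0.01 or 0.05, where 0% of the 12753 tested genes were called. DESeq2 called 0 of the 25 at either threshold, where it called 1 of all 12753 genes at 0.01 and 2 at 0.05. At an unadjusted p under 0.05 edgeR gave 1 gene of the list, VEGFA, against 5.58% of all genes. That count depended on single libraries and on the run: it was 0 of the 25 without complex 72 (743 of all 12753 genes), 18 without complex 88 (722 of all), 19 with the run of complex numbers as covariate (1546 of all) and 22 within complexes 65 to 74 (2654 of all). The lowest adjusted p among the 25 in these fits was 0.068, within complexes 65 to 74 (edgeR's quasi-likelihood test). VEGFA had 1.98, 23.9 and 461 CPM in BCB+ and 1.49, 3.91 and 52.6 CPM in BCB- oocytes, with a log2 fold change of 2.49 ± 0.99 (SE, adjusted p = 0.87).

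The range of the sums rested on single libraries. Without complex 72 the highest BCB+ oocyte was at 1682 CPM, and without complex 88 the highest BCB- oocyte was at 901 CPM. Within complexes 65 to 74 the oocyte sums were 113 to 6641 CPM in the 6 BCB+ complexes and 69.7 to 273 CPM in the 3 BCB- complexes, and the groups overlapped through complex 68, most of whose sum was ENSBTAG00000052369. Without that gene, the most abundant of the list, the sums were 109 to 6181 CPM in BCB+ and 60.5 to 71.6 CPM in BCB- oocytes of this run and did not overlap. The total counts of the cumulus libraries in this run, 4386946 to 10430148 in BCB+ and 1103200 to 1650795 in BCB- complexes, differed in the same direction, and their part in the result was not tested.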

How the data were processed

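The 38 libraries, 1 oocyte and 1 cumulus library of each of 19 complexes, were assigned to compartment and BCB group from the sample labels. The authors aligned trimmed paired-end reads to ARS-UCD1.2 with HISAT2 (version 2.1.0 per the submitters' processing notes), dropped duplicates and counted the rest per Ensembl gene by featureCounts (version 1.6.0), and the deposited values are raw counts of 27607 genes, not normalized. cDNA was primed with oligo-dT and amplified by PCR, and no molecular identifiers were counted, so counting precision is lower than the totals imply. No library was a copy of another (highest correlation on the log2(CPM + 1) scale 0.967 in cumulus cells and 0.985 in oocytes).

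CPM values, the selection and the summaries were computed from these counts with Python 3.11.15 and pandas 2.3.3. The main test was edgeR 4.0.16 (R 4.3.3), quasi-likelihood with robust dispersion and TMM factors, fitted in each compartment on all genes with more than 2 CPM in at least 9 of 19 libraries (12313 in cumulus cells, 12753 in oocytes), with Benjamini-Hochberg adjustment over all of them and a threshold of 0.01. DESeq2 1.42.0 was an alternative. Intervals are the estimate plus or minus 1.96 SE. The test was tried on simulated data.

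The genes of the list, the role lists and the alternatives were chosen with earlier results of these data known. Symbols came from supplementary tables of the study that pair them with identifiers, which gave 4934 symbols. Of 15 genes to be left out by name, 13 had an identifier; AMH and HAS2 did not, so the list could still hold them without a symbol. Genes named are those with a symbol among the 25 most abundant, the 5 most and 5 least variable, the 5 highest in any oocyte, the 2 most abundant of each role list, and those nearest the edge of the rule. MARVELD1, ENSBTAG00000051225, PLEK, BOLA-NC1, LRP8, PTGDS and FOXL2 were named outside that rule. Alternatives were other scalings, filters, thresholds and covariates, leaving out single complexes or the mitochondrial genes, and complexes 65 to 74 alone. No gene sequences were used here.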

Additional observations from a re-analysis of the deposited data

Results flagged for a closer look

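Samples that stood apart from the others of their group were sought with Dixon's criterion at the 95% level in 70 groups of values. These were the summed CPM by compartment and BCB group, and the named genes in cumulus cells by BCB group. Single genes were not screened in this way in oocytes. It marked 9. Chance marks about 1 in 20 groups where groups are independent and values are spread normally. Here the genes share libraries and some were named for their high CV, so that rate is only a rough guide. In oocytes the summed CPM of complex 72 (6641 CPM, next highest BCB+ oocyte 1682 CPM) and of complex 88 (2412 CPM, next highest BCB- oocyte 901 CPM) were marked. In BCB+ cumulus cells the values marked were APOA1 in complex 71 (4066 CPM, next 936 CPM) and IGFBP4 in complex 72 (384 CPM, next 81.7 CPM). In BCB- cumulus cells they were UPK1B in complex 88 (1016 CPM, next 642 CPM), TOX2 in complex 88 (180 CPM, next 108 CPM), MAGED2 in complex 90 (188 CPM, next 133 CPM), BOLA in complex 89 (212 CPM, next 86.6 CPM) and APOA1 in complex 6 (630 CPM, next 324 CPM).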

How the results depend on the processing

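The count of the 190 genes higher in BCB+ cumulus cells at an adjusted p under 0.01 was 0 and became 34 with library totals alone, 74 with library totals and the run of complex numbers as covariate (an alternative chosen after seeing the data), 2 without a filter, 2 with DESeq2, 2 where an edgeR likelihood-ratio test without TMM and DESeq2 both had to call a gene, and 2 at a threshold of 0.05. Without single complexes it was 0 to 1, the 1 being without complex 88, where 14 of all genes were higher. The 2 genes were MARVELD1 and ENSBTAG00000051225 each time. It stayed 0 with DESeq2's size factors, a filter on all libraries (184 of the 190 tested), no mitochondrial genes, the log10 total or the run as covariate, complexes 65 to 74 alone, and complexes 6 to 74 alone (chosen after seeing the data). Over all genes these fits called 4 higher and 67 lower, 4 and 42, 4 and 49, 0 and 2, 5 and 110, 1 and 83, and 5 and 134, in that order. The count of lower genes stayed 0 under all of these, and so did both counts in oocytes under each alternative run there. At 0.05 DESeq2 called 6 of the 190 higher and 3 lower (257 and 580 of all genes), and edgeR without complex 68 called 2 higher and 1 lower (155 and 323 of all genes). The cause of these changes was not tested.

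With means in place of medians in the rule, 10 of the 190 genes were found again among 16 that passed, and with mitochondrial genes out of the totals 181 were found again. TMM-scaled totals (chosen after seeing the data) lowered the median sum in BCB+ cumulus cells from 52469 to 42723 CPM. Of 228 fold changes of 19 genes under 12 alternatives, single complexes left out not counted, 195 kept direction and side of the threshold, 21 passed it and 12 changed sign, none of them past the threshold. With library totals RARRES2 had 0.15 and UPK1B 0.12, with the likelihood-ratio test 0.15 and 0.11, and with library totals and run 0.43 and 0.16. HSD17B1 had -0.091 within complexes 65 to 74, SCD -0.37 there and -0.046 within complexes 6 to 74, and FOS -0.015 with the run, -0.038 with the log10 total and -0.070 within complexes 6 to 74.

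No paired analysis was possible because no complex number occurs in both BCB groups, and the difference between the oocyte and cumulus libraries that share a number was not tested, since the rule chose the genes on it. In oocytes 165 of the 190 genes lay under the CPM filter, as the rule favours low oocyte medians, and were not tested in the main fit.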
